A study of Homo sapiens with 6 samples.

Results

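The Kruppel-like factors (KLF) described here are KLF3, KLF4, KLF5, KLF6, KLF7, KLF9, KLF10, KLF11, KLF12 and KLF13, as measured in T47D, an established human breast cancer cell line of luminal type. Every probe set that the platform annotation assigns to only 1 of these 10 genes was taken, with symbols brought up to date through the Entrez identifier, which gave 38 of the 54613 probe sets on the array that are not manufacturer's controls. A probe set is a group of short oligonucleotides that together read 1 transcript region. KLF10 had 1 probe set, KLF4, KLF5 and KLF11 had 2 each, KLF3 and KLF13 had 4 each, KLF6, KLF7 and KLF9 had 5 each and KLF12 had 8.

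Cells were exposed to GDC-0941, an inhibitor of class I PI3 kinases, for 6 hours in 3 samples, and the 3 control samples received no agent according to the labels. The labelled dose is 1 mM, a unit that may have lost a micro sign, and it is not stated whether controls were given the solvent or whether replicates were separate cultures. All 6 samples come from this 1 cell line, which carries an activating mutation of the catalytic PI3 kinase subunit. The comparison asks which KLF transcripts respond when PI3 kinase is blocked. Because of this, p-values refer to the variation among these 6 arrays alone, and part of it may be technical.

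KLF proteins bind GC-rich and CACCC-containing DNA through a run of zinc fingers at their C-terminus, and their N-terminal parts recruit activators or repressors. By that part they are commonly sorted into activators (KLF4, KLF5, KLF6, KLF7), repressors that bind the corepressor CtBP (KLF3, KLF12) and repressors that bind the corepressor SIN3A (KLF9, KLF10, KLF11, KLF13). In epithelia, including the breast, members of the family are known for their part in the balance between proliferation and differentiation. The forkhead factors FOXO, which AKT holds outside the nucleus while PI3 kinase is active, are reported regulators of several KLF genes.

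Of the 38 KLF probe sets, 13 rose and 1 fell after GDC-0941, at an adjusted p under 0.05 in limma over all 54613 probe sets. The rise of KLF6 was seen on 4 of its 5 probe sets, by 0.60 to 0.88 on the log2 scale, or up to 1.84-fold. KLF9 and KLF3 rose by up to 0.84 and 0.73, and KLF5, KLF7, KLF4 and KLF10 by 0.50 or less. No probe set of KLF11, KLF12 or KLF13 was called. The lone fall was on a KLF9 probe set, while another pair of probe sets of that gene rose.

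Of all probe sets 18.8% were called, 8.88% higher and 9.89% lower, against 36.8% of the KLF probe sets called and 34.2% called higher. The median log2 difference was 0.053 over the 38 KLF probe sets and -0.009 over all. The KLF genes were listed with earlier results of these data known, so these shares are descriptions. The 3 treated arrays all lay above the 3 controls for 15 of the 38 KLF probe sets and all below for 3. Over all probe sets the shares were 15.6% and 18.8%. With 3 arrays against 3, an exact permutation test of 1 probe set cannot go below p = 0.1, so each p given here comes from limma, which shares information on the spread across probe sets.

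The median signal of an array ranged from 7.341 to 7.381. Pairs of arrays from 1 group had correlations of 0.9970 to 0.9983 and pairs from different groups 0.9917 to 0.9942. A rise or fall is therefore relative to the bulk of transcripts. With each array centred on its 18 hybridisation control probe sets, which themselves were lower by 0.17 in treated arrays, 12875 probe sets of the table were higher and 1445 lower, in place of 4851 and 5400. Under that centring 18 KLF probe sets were higher and none was lower. With 1 probe set per gene, that of the highest mean signal, 12.1% of all genes were called higher and 15.6% lower (2398 and 3090), and 5688 and 895 genes under hybridisation centring. By that gene fit, all 12 luminal markers listed were measured, with treated means from 9.17 to 14.30, and 4 rose, led by FOXA1 (0.53) and PGR (0.42), while 4 fell, led by TFF1 (-0.36). None of 6 basal and mesenchymal markers was called (control means 4.75 to 8.20, smallest adjusted p in limma 0.0551, for VIM, and 2 at an unadjusted p under 0.05, VIM and KRT14), and of 10 stromal, endothelial and blood markers (control means 5.67 to 10.40) COL1A1 rose by 0.56. The part of these markers in the KLF values was not tested.

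**Figure D1:**
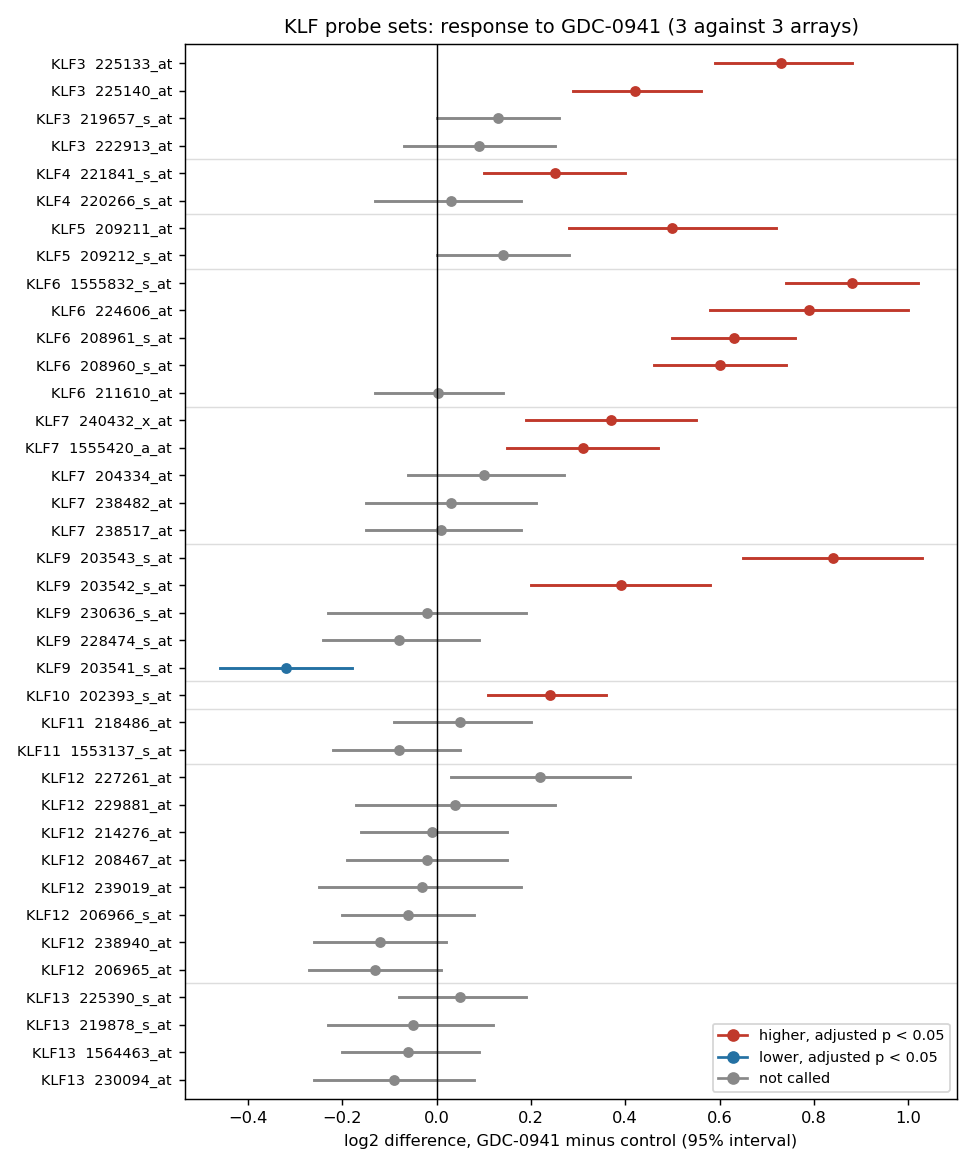
Log2 difference (GDC-0941 minus control, x axis) of all 38 KLF probe sets, grouped by gene, with 95% intervals of the limma fit. Red probe sets were called higher and blue ones lower at an adjusted p under 0.05. KLF6 holds 4 red probe sets between 0.60 and 0.88, KLF9 has both colours, and KLF11, KLF12 and KLF13 have none.

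Promoter windows were looked up because KLF genes can be targets of KLF and FOXO factors. RefSeq (GRCh38.p14) gave windows of 250 bases before to 50 bases after a start for 8 of the 10 genes, 16 windows in all. The windows of KLF6 (largest rise), KLF9 (probe sets in both directions), KLF4 (a small rise) and KLF13 (not called) are shown to let those responses be set beside the promoter letters. Capitals mark the GC box GGGCGG and the CACCC box CACCC, both of the kind that KLF and SP proteins bind, on either strand.
KLF6, chr10:3785160-3785459, minus strand: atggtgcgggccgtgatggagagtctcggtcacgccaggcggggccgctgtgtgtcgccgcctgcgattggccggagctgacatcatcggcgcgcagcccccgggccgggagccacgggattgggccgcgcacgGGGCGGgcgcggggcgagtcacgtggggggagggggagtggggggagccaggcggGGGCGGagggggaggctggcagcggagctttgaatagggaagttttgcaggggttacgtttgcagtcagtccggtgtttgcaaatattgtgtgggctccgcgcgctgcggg
KLF9, chr9:70414608-70414907, minus strand: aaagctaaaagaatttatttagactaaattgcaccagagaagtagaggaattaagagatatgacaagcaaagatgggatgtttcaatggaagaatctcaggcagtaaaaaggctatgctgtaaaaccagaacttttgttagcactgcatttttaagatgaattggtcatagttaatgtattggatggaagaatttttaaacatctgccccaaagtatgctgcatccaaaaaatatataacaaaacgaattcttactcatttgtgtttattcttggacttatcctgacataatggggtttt
KLF4, chr9:107489720-107490019, minus strand: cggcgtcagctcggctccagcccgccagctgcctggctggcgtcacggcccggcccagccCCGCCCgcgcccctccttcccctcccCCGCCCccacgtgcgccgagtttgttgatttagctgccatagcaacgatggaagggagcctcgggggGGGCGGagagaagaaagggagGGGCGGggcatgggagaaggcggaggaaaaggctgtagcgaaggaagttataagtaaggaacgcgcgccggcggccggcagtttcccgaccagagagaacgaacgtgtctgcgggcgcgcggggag
KLF13, chr15:31326585-31326884, plus strand: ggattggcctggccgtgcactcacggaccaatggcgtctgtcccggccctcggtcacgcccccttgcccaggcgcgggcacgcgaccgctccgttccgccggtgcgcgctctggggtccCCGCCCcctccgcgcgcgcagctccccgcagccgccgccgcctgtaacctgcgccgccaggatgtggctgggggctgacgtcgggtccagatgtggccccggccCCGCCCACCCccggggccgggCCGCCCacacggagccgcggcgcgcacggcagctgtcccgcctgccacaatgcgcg

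The KLF6 window held 2 GC boxes and no CACCC box, that of KLF4 held 4 and none, and that of KLF13 held 3 and 1, where a GC box overlaps the CACCC box. The KLF9 window held neither and had a GC content of 32.7%, against 69.0% to 78.3% in the other 3. Across the 16 KLF windows 8 held a GC box and 9 a CACCC box, and of all 35116 windows 44.95% and 59.87% did. The forkhead core TGTTT (or AAACA) lay in 7 of the 16 windows and in 44.43% of all windows. The 7 windows belong to 5 genes. KLF6 had it at 13 bases after the start, KLF9 at -172, -53 and 12, and KLF5 at -68, -14 and 37. KLF7 had it at -135 and -46, in separate windows. KLF12, of which no probe set was called, had it at -235, -179 and 1 in 1 window and at -177 in another. The longer FOXO element TGTTTAC (or GTAAACA) was in none of the 16 and in 3.42% of all. These are matches of letters only, and the array holds no binding data.

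Among the 4 activator genes, 8 of 14 probe sets rose and none fell, where 8.88% of all probe sets rose and 9.89% fell. The median log2 difference of the 14 was 0.28. Probe sets of 1 gene are not independent, and no test compared the classes. KLF6, a factor widely studied as a candidate tumour suppressor, carried 4 of the 8 that rose, and these 4 did not overlap between groups. Probe set 1555832_s_at read 9.52, 9.52 and 9.52 in the control arrays and 10.49, 10.34 and 10.37 in the treated arrays. The treated arrays were all higher, and the difference of 0.88 ± 0.06 (SE, n = 3 each) had an adjusted p of 6.67e-06. Probe set 224606_at read 9.83, 9.80 and 10.06 in controls and 10.85, 10.50 and 10.72 under GDC-0941, a difference of 0.79 ± 0.10 (SE, adjusted p = 0.000195). Control replicate 3 was the highest control and still lay under every treated array.

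The other called KLF6 probe sets, 208961_s_at and 208960_s_at, rose by 0.63 and 0.60 (adjusted p = 3.93e-05 and 9.13e-05). The fifth, 211610_at, read 8.55, 8.51 and 8.52 in controls and 8.46, 8.61 and 8.51 under GDC-0941, with groups that overlapped and a difference of 0.0031 (95% interval -0.13 to 0.14). That interval lies below those of the 4 that rose. Tested against the mean of the other KLF6 probe sets, 211610_at responded less by 0.72 (adjusted p = 1.57e-07 with limma's diffSplice). When this difference was taken on each array before the limma fit, the adjusted p was 0.0013. Probe set 1555832_s_at responded more than the mean of the others, which includes 211610_at, by 0.37. Its adjusted p was 0.00174 in diffSplice and 0.00788 with the difference taken on each array. For 224606_at the difference was 0.26, called in diffSplice (adjusted p = 0.0274) but not on each array (0.117). The sources used here do not give the position of each probe set in its transcript.

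**Figure D2:**
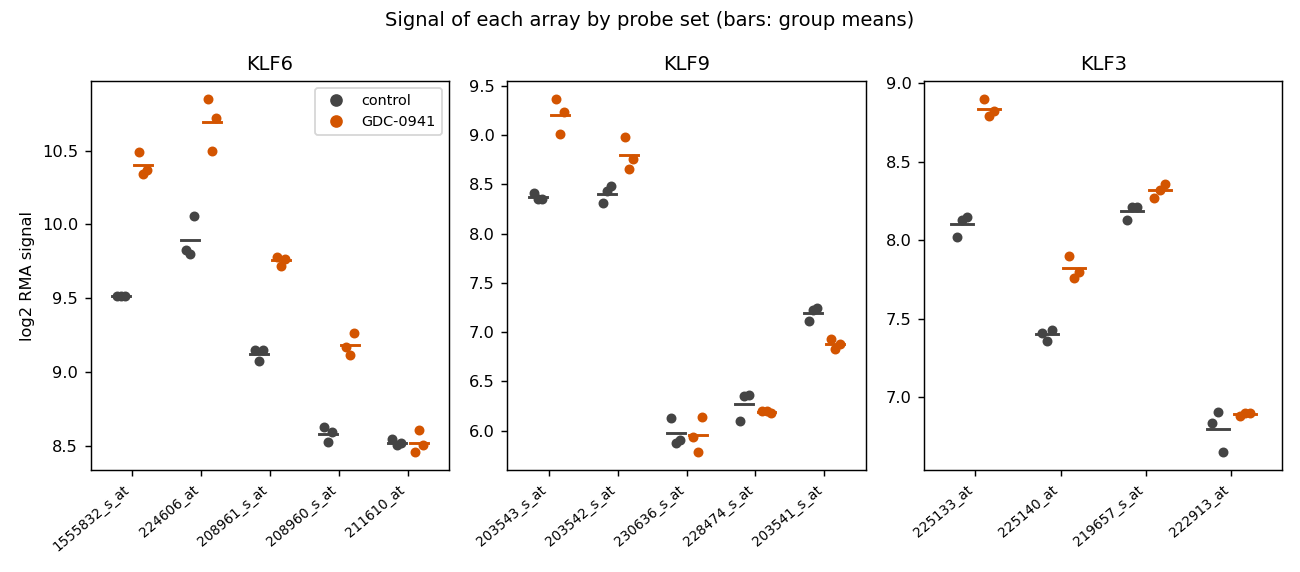
Log2 RMA signal (y axis) of each array for every probe set of KLF6, KLF9 and KLF3 (x axis), controls in grey and GDC-0941 in orange, with a bar at each group mean of 3 arrays. Within each gene some probe sets separate the groups fully, such as 1555832_s_at of KLF6 at 9.52 against 10.40, while others overlap, such as 211610_at.

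KLF7, the nearest relative of KLF6 and best known from neurons, rose on 2 of its 5 probe sets. Probe set 240432_x_at read 6.56, 6.39 and 6.34 in controls and 6.95, 6.69 and 6.77 in treated arrays, a difference of 0.37 ± 0.08 (SE, adjusted p = 0.00794). Its suffix _x marks probes that may also match other transcripts. Probe set 1555420_a_at read 7.09, 7.07 and 7.24 against 7.56, 7.35 and 7.41, a difference of 0.31 ± 0.07 (SE, adjusted p = 0.0127). Neither overlapped between groups, but the second call was lost without control replicate 2 (adjusted p = 0.0578). The other 3 KLF7 probe sets differed by 0.01 to 0.10 with overlapping groups. No KLF7 probe set differed from the rest of its gene in diffSplice, the smallest adjusted p being 0.0761, so an unequal response within KLF7 was not shown.

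KLF5, a factor of proliferating epithelium, and KLF4, a factor of epithelial differentiation that is also used to reprogram cells to pluripotency, each rose on 1 of 2 probe sets. For KLF5, 209211_at read 5.29, 5.06 and 5.42 in controls and 5.94, 5.70 and 5.65 in treated arrays, a difference of 0.50 ± 0.10 (SE, adjusted p = 0.00436). This signal is low, with a mean of 5.51 over the 6 arrays where the median probe set of the array stands at 7.36. The other, 209212_s_at, read 7.65, 7.73 and 7.71 against 7.84, 7.92 and 7.75, also without overlap, and differed by 0.14 ± 0.06 without being called (SE, adjusted p = 0.170). Under hybridisation centring it was called, at 0.311 (adjusted p = 0.0159).

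For KLF4, 221841_s_at read 8.54, 8.49 and 8.67 in controls and 8.90, 8.75 and 8.81 in treated arrays, a difference of 0.25 ± 0.07 (SE, adjusted p = 0.0233). The groups did not overlap, but the call was lost without control replicate 1 (adjusted p = 0.069), control replicate 2 (0.106), GDC-0941 replicate 1 (0.0709) or GDC-0941 replicate 3 (0.0666). Probe set 220266_s_at overlapped between groups and differed by 0.03 (95% interval -0.13 to 0.18). The KLF4 pair differed in response by 0.23, with an adjusted p of 0.179 in diffSplice and of 0.0434 when the difference between them was taken on each array before the limma fit.

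**Figure D3:**
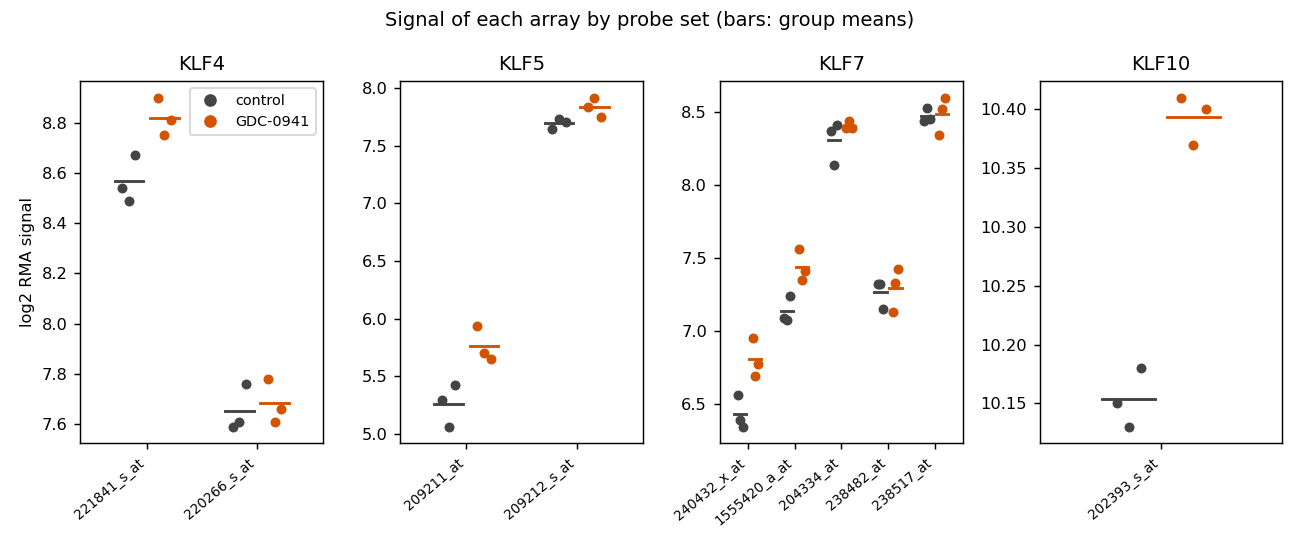
Log2 RMA signal (y axis, a separate range for each gene) of each array for every probe set of KLF4, KLF5, KLF7 and KLF10 (x axis), controls in grey and GDC-0941 in orange, with a bar at each group mean of 3 arrays. The groups separate for 221841_s_at, 209211_at, 209212_s_at, 240432_x_at, 1555420_a_at and 202393_s_at, and overlap in the rest.

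Of the 12 probe sets of the CtBP-binding repressors, 2 rose, both of KLF3, and none fell (of all probe sets 8.88% rose and 9.89% fell). The median was 0.02, and 8 of the 12 belong to KLF12. KLF3 is a broad repressor of CACCC-box promoters. Its probe set 225133_at read 8.02, 8.13 and 8.15 in controls and 8.90, 8.79 and 8.82 in treated arrays, a difference of 0.73 ± 0.06 (SE, adjusted p = 2.53e-05). Probe set 225140_at read 7.41, 7.36 and 7.43 against 7.90, 7.76 and 7.80, a difference of 0.42 ± 0.06 (SE, adjusted p = 0.000669). In both, every treated array exceeded every control.

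Another KLF3 probe set, 219657_s_at, also had all treated arrays above the controls (8.27, 8.32 and 8.36 against 8.13, 8.21 and 8.21), but its difference of 0.13 was not called (adjusted p = 0.165). The fourth, 222913_at, overlapped between groups at 0.09 (95% interval -0.07 to 0.25). In diffSplice 225133_at responded more than the rest of KLF3 by 0.52 (adjusted p = 1.43e-05). Probe sets 219657_s_at and 222913_at responded less by 0.28 and 0.34 (diffSplice adjusted p = 0.00969 and 0.00222, differences of -0.28 and -0.34). With the difference taken on each array before the limma fit, the 3 adjusted p were 0.00221, 0.0268 and 0.0326.

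KLF12, which represses the AP-2 alpha gene, was read by 8 probe sets, more than any other gene of the 10, and none was called. Their differences ran from -0.13 to 0.22, with 95% intervals from -0.27 to 0.41 over all 8. The widest departure, 227261_at, read 6.75, 6.71 and 6.56 in controls and 6.71, 7.03 and 6.95 in treated arrays. GDC-0941 replicate 1 lay among the controls there, and without it the difference was 0.311 with an adjusted p of 0.0202, against 0.22 and 0.112 with all arrays. It was also called under hybridisation centring (0.390, adjusted p = 0.00178) and with array weights (0.240, adjusted p = 0.00924). Both 206965_at and 238940_at had all treated arrays below the controls, by 0.13 and 0.12, at mean signals of 4.28 and 4.93. They were not called (adjusted p = 0.189 and 0.229), and under hybridisation centring they differed by 0.039 and 0.049, above 0. With array weights 206965_at was called lower (-0.148, adjusted p = 0.0357) and 238940_at was not (-0.112, adjusted p = 0.0974).

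Among the 4 SIN3A-binding repressors, 3 of 12 probe sets rose and 1 fell (of all probe sets 8.88% rose and 9.89% fell). The median was -0.04, and all but 1 of these calls belong to KLF9. KLF9 is known as a gene induced by glucocorticoid and thyroid hormones and as a partner of the progesterone receptor. Probe set 203543_s_at read 8.41, 8.35 and 8.35 in controls and 9.37, 9.01 and 9.24 under GDC-0941, a difference of 0.84 ± 0.09 (SE, adjusted p = 6.68e-05), or 1.79-fold. Probe set 203542_s_at read 8.31, 8.43 and 8.48 against 8.98, 8.66 and 8.76, a difference of 0.39 ± 0.09 (SE, adjusted p = 0.00737). GDC-0941 replicate 1 was the highest array and replicate 2 the lowest treated array in both.

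In 203541_s_at the direction turned. It read 7.11, 7.23 and 7.25 in controls and 6.93, 6.83 and 6.88 in treated arrays, all below the controls, a difference of -0.32 ± 0.06 (SE, adjusted p = 0.00444). Under hybridisation centring this was -0.149 and no longer called (adjusted p = 0.259), whereas each array left out in turn kept it between -0.36 and -0.293 and called. The last KLF9 probe sets, 230636_s_at and 228474_s_at, overlapped between groups and differed by -0.02 and -0.08 at mean signals of 5.96 and 6.23.

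Tested within the gene, 203543_s_at responded more than the other KLF9 probe sets by 0.84 (diffSplice adjusted p = 7.82e-07) and 203541_s_at less by 0.60 (difference -0.60, adjusted p = 0.000113). With the difference taken on each array these were 0.000384 and 0.000983. A gene with 1 probe set called higher and another called lower was uncommon: 85 of the 10523 genes with 2 or more probe sets (0.808%). That share was not matched to genes with 5 probe sets, which have more chances of such a split than genes with 2. All 5 KLF9 probe sets carry the suffix _s, which marks probes shared by several transcripts, and averaging the 5 gave a gene value of 0.164 that was not called (adjusted p = 0.0622).

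KLF10 (also TIEG1, an early response gene of TGF-beta signalling) had a single probe set, 202393_s_at. It read 10.15, 10.13 and 10.18 in controls and 10.41, 10.37 and 10.40 in treated arrays, a tight separation. The rise of 0.24 ± 0.06 (SE, adjusted p = 0.0120) is 1.18-fold, and the call was lost without control replicate 2 (adjusted p = 0.0559) or GDC-0941 replicate 3 (0.0519).

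KLF11, the closest relative of KLF10 and likewise a TGF-beta early gene, gave differences of 0.05 and -0.08 on its 2 probe sets, with overlapping groups and 95% intervals between -0.22 and 0.20. KLF13, a regulator of the chemokine gene CCL5 in T cells, gave differences from -0.09 to 0.05 on 4 probe sets, again with overlap on each and intervals between -0.26 and 0.19. Over the 14 probe sets of KLF11, KLF12 and KLF13 none passed limma's adjusted threshold, and 1 had an unadjusted p under 0.05. The intervals do not show that these transcripts stayed level. Whether the response of KLF10 differed from that of KLF11 was not tested.

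Over the 37 KLF probe sets with a partner on the same gene, diffSplice found 8 that differed from the others of their gene, where 10.3% of all such probe sets did. With the difference taken on each array 10 differed (10.0% of all), and 7 were found both ways, in KLF3, KLF6 and KLF9. Of the 14 called KLF probe sets 10 had a mean signal above that of the median probe set (7.36), as had 9 of the 24 not called. RMA gives no detection call, so whether the dim probe sets read their transcript was not tested.

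With 1 probe set per gene, that of the highest mean signal, 5 of the 10 KLF genes rose (KLF3, KLF4, KLF6, KLF9 and KLF10) and none fell, where 27.8% of all 19775 genes were called, 12.1% higher and 15.6% lower. This rule picks probe sets of KLF5 and KLF7 that were not called (0.14 and 0.01). KLF5 and KLF7 were called by the mean of all their probe sets (0.322 and 0.166, adjusted p = 0.00400 and 0.0225), which ended the calls of KLF4 (0.141, adjusted p = 0.126) and KLF9. By any probe set, 7 of the 10 genes had a rise, as did 13.5% of all genes. These shares are not like for like: the 10 KLF genes have 38 probe sets, and all 19775 genes have 41091. A KLF gene thus has more chances of a call under this rule.

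Of the other KLF and SP genes, which bind the same kinds of DNA box, 15 of 17 listed were measured in the gene fit, and 4 rose and 2 fell, with a median of -0.049 beside -0.017 for all genes. SP2 rose by 0.67 ± 0.06 (SE, adjusted p = 9.05e-06) and SP3 by 0.47 ± 0.06 (SE, adjusted p = 0.000152), each on 1 probe set only. The other 2 probe sets of SP2 differed by -0.10 and -0.04 and the other 4 of SP3 by -0.11 to 0.11, none of them called. KLF16, a SIN3A-binding relative of KLF9 and KLF13, fell by 0.49 on the log2 scale (adjusted p = 0.000466), on 1 of 2 probe sets. The other 3, named after their values were seen, were KLF8 (0.44, the third CtBP-binding KLF), SP1 (0.34) and SP6 (-0.30). On KLF8 both probe sets rose: 230986_at read 8.28, 8.25 and 8.44 in controls and 8.91, 8.80 and 9.01 in treated arrays, and 219930_at read 8.57, 8.31 and 8.52 against 8.99, 8.95 and 8.79. Treated arrays lay above the controls in both.

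**Figure D4:**
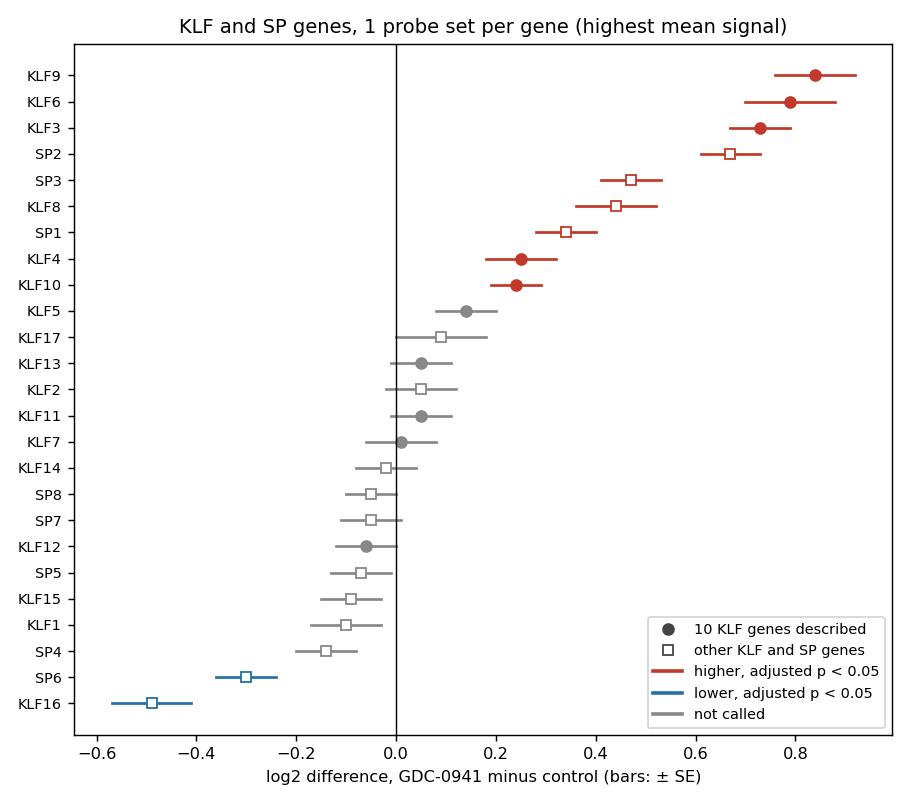
Log2 difference (GDC-0941 minus control, x axis, bars ± SE, n = 3 each) of the 10 KLF genes (filled circles) and the 15 other measured KLF and SP genes (open squares), each by its probe set of highest mean signal. KLF9, KLF6, KLF3 and SP2 stand highest, at 0.84, 0.79, 0.73 and 0.67, and KLF16 lowest, at -0.49.

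Of the 17 corepressors and coactivators through which KLF factors act, 5 rose and 3 fell (7 and 0 under hybridisation centring), at a median of 0.019. Of all genes 12.1% rose and 15.6% fell, and far more were higher than lower under that centring (5688 and 895). By the mean of all probe sets of a gene, 3 of the 17 rose and 4 fell (2161 and 3025 of all genes). With probe sets lacking the suffixes _s and _x taken first, 4 rose and 3 fell (2147 and 2731 of all genes). The values that follow are of 1 probe set per gene, that of the highest mean signal. The histone acetyltransferases EP300, CREBBP and KAT2B, which KLF activators recruit, rose by 0.57, 0.41 and 0.34 (adjusted p = 8.08e-05, 0.000231 and 0.0121). Another acetyltransferase of the list, KAT2A, fell by 0.24 on the log2 scale (adjusted p = 0.00738), as did the deacetylases HDAC2 and HDAC3, by 0.25 and 0.21, and the corepressor CTBP2 rose by 0.27. These 4 were named after their values were seen. Of 13 measured ubiquitin ligases and proteases reported to act on KLF proteins, 5 rose and 2 fell, with a median of 0.097 (12.1% and 15.6% of all genes). The F-box protein FBXO32 rose by 1.20, FBXO22, another F-box protein, fell by 0.53 on the log2 scale, and WWP1, a ligase for KLF5, rose by 0.36.

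Among 32 genes reported as direct targets of KLF factors 5 rose and 7 fell (9 and 3 under hybridisation centring), at a median of -0.059. The shares over all genes were 12.1% and 15.6%, and 5688 genes were higher and 895 lower under that centring. By the mean of all probe sets of a gene, 6 of the 32 rose and 6 fell (2161 and 3025 of all genes). With probe sets lacking the suffixes _s and _x taken first, 8 rose and 5 fell (2147 and 2731 of all genes). Cyclin D1 (CCND1) differed by -1.23, the CDK inhibitor CDKN1B by 0.89 and the growth factor PDGFA by -0.54, all called (adjusted p = 1.43e-07, 1.23e-06 and 0.000121). CDKN1A (p21), often cited as a target of KLF4 and KLF6, differed by 0.01 ± 0.06 (SE, adjusted p = 0.902). SMAD7, reported as repressed by KLF10 and KLF11, differed by 0.02 ± 0.06 (SE, adjusted p = 0.828). Both were picked after their values were seen. The lists were drawn from general knowledge with earlier results of these data known, and no test was made of a list as a whole.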

How the data were processed

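The deposited table holds log2 RMA signals, 1 column per array, which the authors made with RMA, per the submitters' processing notes (background correction, normalization between arrays and a median polish summary per probe set). Neither the version nor the chip definition is stated in the labels. That the scale is log2 was judged from the range of values (3.00 to 14.81). Of 54675 probe sets 62 are controls, and 41091 of the rest name 1 gene, 19775 genes in all.

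For GDC-0941 minus control, lmFit and eBayes of limma 3.58.1 (R 4.3.3) were run on every probe set, two-sided, with Benjamini-Hochberg adjustment over all of them and calls at an adjusted p under 0.05. The same was done with 1 probe set per gene, and diffSplice tested each probe set against the others of its gene. The median standard error was 0.0692. The number of arrays limits the precision. Every KLF probe set is named or counted, and of each list the 3 called genes with the largest change, or the one with the smallest p. Members and lists were chosen with earlier results of these data known. Replicate numbers are shared by the groups, but same-numbered arrays did not deviate together (correlations of -0.344, 0.139 and -0.027), so no pairing was used. Figures were drawn with matplotlib 3.10.9.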

Additional observations from a re-analysis of the deposited data

How the results depend on the processing

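The alternatives were a replicate block, each array left out in turn, centring on the array median or on hybridisation controls, a second quantile normalization, array weights, robust estimation with a variance trend, probe sets above the median level only, a threshold of 0.01 and, for genes, other rules for the probe set. The fit on differences per array was added after seeing the data. The 14 KLF probe sets called became 11 to 14 with an array left out, 10 (of 19 kept) above the median level, 11 at the threshold of 0.01, 18 (none lower) with hybridisation centring and 17 (15 higher, 2 lower) with array weights. Over the 513 values of the 38 KLF probe sets under alternatives, 11 lost and 9 gained a call, and no called one changed sign. The replicate block left 14 KLF probe sets and 5 KLF genes called and gave 8514 of all probe sets. The labels do not say whether the replicate numbers mark a pairing. Over all probe sets the 10251 calls became 6104 at the threshold of 0.01 and 16901 with array weights, whose estimation did not fully converge; for genes, 5488 became 9411 with array weights. At the threshold of 0.01, 4 corepressors and coactivators were called in place of 8, and 1718 probe sets differed within their gene in place of 3292, a count that ran from 1998 (without control replicate 2) to 3057 with an array left out and was 2110 without GDC-0941 replicate 3. Apart from the thresholds, the cause of these shifts was not tested. The signal over background is unknown, since RMA values carry no detection call.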

Other observations

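Noncoding transcripts beside KLF genes were read by 3 probe sets, none of them called. KLF3-AS1, an antisense transcript that overlaps the start of KLF3, differed by 0.16 on 1570414_x_at (7.49, 7.51 and 7.09 in controls, 7.55, 7.52 and 7.51 under GDC-0941, adjusted p = 0.344 in limma) and by -0.01 on 219871_at. KLF9-DT, a divergent transcript from the KLF9 start, read 7.41, 7.35 and 7.28 in controls and 7.23, 7.22 and 7.31 in treated arrays, with overlapping groups and a difference of -0.09 (adjusted p = 0.400 in limma). KLF2, the relative of KLF4 known from endothelium and T cells, was read by 2 probe sets with differences of 0.05 and -0.09 (adjusted p = 0.708 and 0.438 in limma), both with overlap. KLF16 fell on 226328_at, and its other probe set, 224111_x_at, had every treated array below the controls (8.29, 8.29 and 8.35 against 8.41, 8.50 and 8.64) without being called (difference -0.21, adjusted p = 0.0647 in limma).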
